A study of Mus musculus with 16 samples.

Results

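The tissue inhibitors of metalloproteinases and the matrix metalloproteinases they restrain were described in mouse hearts as 8 genes chosen by symbol: the inhibitors Timp1, Timp2, Timp3 and Timp4 and the proteases Mmp2, Mmp9, Mmp14 and Mmp15. All 8 were found among the 30153 genes of the deposited table. Mmp9 was not among the 7 that entered the comparisons across genes, because it reached 1 TPM (a share of the reads corrected for transcript length and rescaled to 1 fixed total) in 1 of 16 hearts. RNA was measured in 16 hearts, all labelled as strain C57/BL6. The groups were adult C57 mice without a transgene in their label (n = 3), aged Haplotype-I mice (n = 4), aged Haplotype-I mice fed a western diet (n = 5) and younger, adult Haplotype-I mice (n = 4), whose sample labels state the western diet while the design text of the series names them without a diet. Per the series title, Haplotype-I (Hap-I) mice overexpress the human receptor for angiotensin II, the hormone that raises blood pressure and promotes scarring of the heart. The promoter of the transgene, the number of founder lines, age in months and sex are not given in the sources used here, and the human transcript was not analysed here. No group holds aged C57 mice, so each comparison with C57 joins the transgene with age, diet or both.

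Metalloproteinases cut collagens, gelatins, laminins and other matrix proteins between the heart's cells, and are made as inactive precursors that other proteases open. Each Timp protein binds the active site of a metalloproteinase and blocks it, and the inhibitors differ in what else they bind. In the heart, fibroblasts, endothelial cells, muscle cells and leukocytes all contribute to this system, and transcript levels do not report how much of a protease is active.

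In GRCm38 with the GENCODE annotation, the 8 members are single protein-coding genes at separate loci. Timp1 lies at chrX:20870166-20874735 on the plus strand, Timp2 at chr11:118301069-118355740 on the minus strand, Timp3 at chr10:86300372-86349506 on the plus strand and Timp4 at chr6:115241892-115252205 on the minus strand. Mmp2 and Mmp15 share a chromosome, at chr8:92827291-92853420 and chr8:95352268-95375080, Mmp9 lies at chr2:164940780-164955850 and Mmp14 at chr14:54431612-54445364, all on the plus strand. Timp1, Timp3 and Timp4 share an arrangement: each sits inside a synapsin gene (Syn1, Syn3 and Syn2) on the opposite strand. For Timp3, 34.8% of the 31-base words in its coding transcripts also occur in Syn3 transcripts on either strand, against 1.04% for Timp4 in Syn2 and 0 for Timp1 in Syn1. Syn3 itself stood at 0.0307 to 0.514 TPM in the 16 hearts, far below Timp3.

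The upstream sequences of Timp3 and Timp4 are shown because these 2 members were the ones that passed the test below. They come from RefSeq on GRCm38.p6, which held 6 of the 8 members (not Mmp2 and Mmp9), are written 5′ to 3′ on the gene's own strand, and stop before the first annotated transcript base. Capitals mark CpG dinucleotides. The Timp3 stretch of 210 bases is chr10:86300162-86300371 (plus strand) and the Timp4 stretch of 250 bases is chr6:115252206-115252455 (minus strand).
Timp3: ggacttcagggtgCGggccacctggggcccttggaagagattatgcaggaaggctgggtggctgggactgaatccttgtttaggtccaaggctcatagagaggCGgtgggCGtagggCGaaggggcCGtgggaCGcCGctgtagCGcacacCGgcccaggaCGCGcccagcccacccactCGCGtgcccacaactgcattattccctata
Timp4: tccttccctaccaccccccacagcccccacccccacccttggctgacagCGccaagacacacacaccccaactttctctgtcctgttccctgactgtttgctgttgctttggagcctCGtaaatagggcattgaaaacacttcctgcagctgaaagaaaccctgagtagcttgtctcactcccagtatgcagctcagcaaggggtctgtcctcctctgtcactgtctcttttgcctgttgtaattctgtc

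These 2 upstream regions differ in base composition. Over the full 250 bases before the RefSeq start, Timp3 holds 18 CpG at 65.6% GC and Timp4 holds 2 CpG at 53.6% GC, where the median of all 32851 promoters in the table is 6 CpG and the middle range is 2 to 16. The GC box GGGCGG, the word bound by Sp1, was found on either strand in Timp1, Timp2, Timp3, Mmp14 and Mmp15 and not in Timp4, and 32.7% of all promoters hold it. By the GENCODE annotation the Timp2 window lies inside the gene. The Timp3 box, at -15 to -10, lies in the 40 bases left out of the stretch shown above, which GENCODE places within the gene. The AP-1 word TGANTCA was found in none of the 6, against 6.7% of all promoters, and neither was the TATA word TATAAA, against 12.4%. These matches describe letters in the window and not use of a site.

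The hearts' levels are given as scaled TPM, TPM divided by the library's size factor. That factor is the median, over genes, of the library's TPM relative to the gene's geometric mean over all libraries. The labelled tissue carried its defining markers in every library: Myl2, the ventricular regulatory myosin light chain, ranged from 12223.7 to 19699.5 and Tnnt2, cardiac troponin T, from 5129.9 to 8399.4. Sequencing depth is unknown from TPM. Several signs of library quality differed between hearts, in part along with the groups. Mitochondrial transcripts took 31.1% to 46.1% of TPM and size factors ran from 0.682 to 1.24. The mitochondrial share was 31.1% to 40.3% in C57, 34.6% to 36.5% in aged, 37.2% to 45.9% in aged western-diet and 38.7% to 46.1% in younger western-diet hearts, so aged hearts overlapped neither western-diet group. The rank correlation of a library's deviations with transcript length ran from -0.33 to -0.11 in C57 and from 0.06 to 0.47 in aged hearts, which did not overlap, from -0.28 to 0.5 in aged western-diet and from -0.46 to 0.25 in younger western-diet hearts. Summed levels of 8 atrial markers ran from 536.1 to 7137.9 in C57 and from 376.7 to 5410.2 in aged hearts. They ran from 216.5 to 429.5 in aged western-diet hearts, all below every C57 heart, and from 239.2 to 1432.4 in younger western-diet hearts. Y-linked transcripts were near 0 in 5 hearts, namely aged western-diet replicates 1, 2 and 3 and younger western-diet replicates 1 and 2. No 2 libraries held identical values.

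By their median over the 16 hearts, on the per-length scale, the members ranked from Timp3 at 34.4 scaled TPM through Timp2 at 23.2, Mmp15 at 15.8, Mmp2 at 12.3, Mmp14 at 4.81, Timp4 at 3.88 and Timp1 at 2.78 to Mmp9 at 0.447. Timp3 lay above 88% of the genes tested and Timp1 above 34.7%. The ranges of neighbours in this order overlapped, except that Mmp9, at 0.887 or less, lay below every value of Timp1. Timp2 was the steadiest member, with a highest value 1.41 times its lowest, and Timp4 spread most, 11.6-fold.

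Timp3, the inhibitor that stays bound to the matrix and also blocks ADAM17 and the aggrecanases, was lower in all 13 Hap-I hearts than in any C57 heart. The 3 C57 hearts held 61.1, 60.8 and 65.3 scaled TPM (mean 62.4 ± 2.51, SD, n = 3). The 4 younger western-diet hearts held 21.4, 12.1, 15.8 and 31.4 (mean 20.2 ± 8.41). The 4 aged hearts held 35.1, 40.3, 40.1 and 33.7 (mean 37.3 ± 3.41), and the 5 aged western-diet hearts 40.9, 24.5, 32.9, 21.4 and 37.7 (mean 31.5 ± 8.35). The C57 values lie close together, and the highest Hap-I value, 40.9, is well under the lowest of them. The younger hearts are the lowest group and do not overlap the aged hearts without the diet, but they do overlap the aged western-diet hearts.

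Timp4, an inhibitor with few sites of strong expression, the heart among them, showed the same separation at a lower level. The C57 hearts held 7.68, 10.6 and 7.74 scaled TPM (mean 8.68 ± 1.67, SD, n = 3) and the aged hearts 2.94, 3.55, 2.57 and 4.43 (mean 3.37 ± 0.81, n = 4). The aged western-diet hearts held 4.42, 3.97, 4.13, 5.9 and 3.27 (mean 4.34 ± 0.971, n = 5) and the younger western-diet hearts 2.26, 0.918, 2.43 and 3.8 (mean 2.35 ± 1.18, n = 4). No Hap-I heart reached the lowest C57 value, whereas all 3 Hap-I groups overlapped each other.

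**Figure D1:**
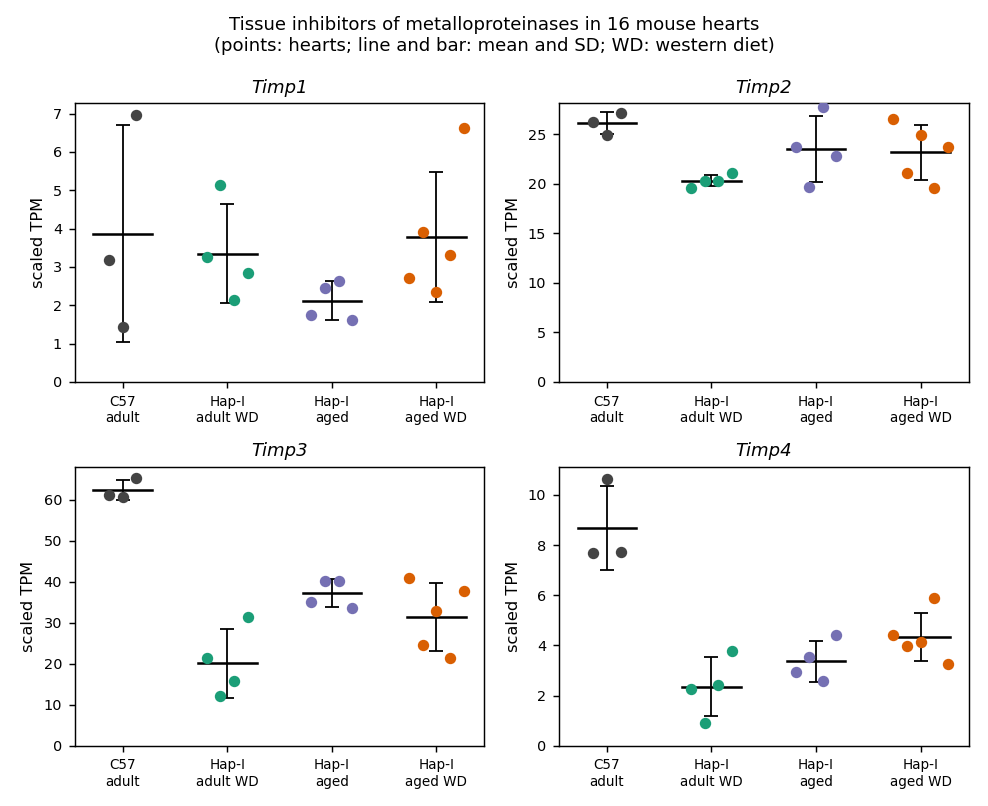
Scaled TPM (y axis, linear from 0) of the inhibitors in the 4 groups (x axis); points are hearts, and the line and bar give the mean and SD. Timp3 and Timp4 are higher in the 3 C57 hearts (60.8 to 65.3 and 7.68 to 10.6) than in any of the 13 Hap-I hearts, while Timp1 and Timp2 overlap between groups except for Timp2 in the younger western-diet hearts (19.6 to 21) against C57 (24.9 to 27.1).

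Against C57, Timp3 and Timp4 fell in the younger western-diet hearts and in the aged western-diet hearts, and Timp4 alone passed in the aged hearts without the diet. In younger western-diet minus C57 hearts Timp3 was 3.09-fold lower by the means (log2 fold change -1.67 ± 0.25, SE, adjusted p = 0.00288) and Timp4 3.69-fold lower (-1.59 ± 0.24, adjusted p = 0.00288). These 2 of 7 tested members stand beside a background of 3.45% of all genes called in that comparison. Each fold change was computed on log2(scaled TPM + 1), a scale that understates changes of low genes, and p-values are from limma, adjusted over 11415 genes.

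In aged western-diet minus C57 hearts, Timp3 was 1.98-fold lower (-1 ± 0.24, adjusted p = 0.00933) and Timp4 2-fold lower (-0.86 ± 0.23, adjusted p = 0.0165). Here 21.9% of all genes were called, so 2 of 7 members lies near the background. In aged minus C57 hearts Timp4 was 2.57-fold lower (-1.15 ± 0.24, adjusted p = 0.0101), 1 of 7 members beside 11.2% of all genes. Timp3 in that comparison was 1.67-fold lower without overlap of the groups and did not pass (-0.73 ± 0.25, adjusted p = 0.0745).

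When the 3 Hap-I groups were averaged with equal weight and set against C57, Timp3 had a log2 fold change of -1.13 ± 0.21 (2.1-fold lower, adjusted p = 0.00339) and Timp4 of -1.2 ± 0.2 (2.59-fold lower, adjusted p = 0.00201). The other 5 tested members did not pass, and 15.7% of all genes did. The comparisons with C57 share the same 3 control hearts, so their values are set side by side and are not independent of each other. The median over the 7 members was -0.22 in this comparison, against 0.001 over all genes tested.

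These calls depend in part on 1 control heart and on settings. Without size factors no member passed in aged or in aged western-diet minus C57 hearts (Timp4 at -1.02, adjusted p = 0.0722, and -0.89, adjusted p = 0.0662). Without C57 replicate 2, which holds the highest Timp4 value, Timp4 in aged western-diet hearts had an adjusted p of 0.0721. The same heart had atrial markers summing to 536.1, against 7137.9 and 5003.2 in the other C57 hearts. It held 60.8 of Timp3 and 10.6 of Timp4. In aged western-diet minus C57 hearts, 6 of the 8 atrial markers fell and 2 did not pass, beside 21.9% of all genes called. With a covariate for atrial markers, Timp3 and Timp4 in aged western-diet minus C57 hearts no longer passed (-0.78, adjusted p = 0.134, and -0.91, adjusted p = 0.0885). With the covariate, both kept their calls in younger western-diet hearts (adjusted p = 0.0158 and 0.0143). In the 11 hearts with Y-linked transcripts, Timp4 ended just above the threshold in both western-diet groups against C57 (adjusted p = 0.0535 for younger and 0.0639 for aged hearts). Timp3 and Timp4 passed for the mean of the 3 Hap-I groups under each of the settings tried for that comparison. Without size factors Timp3 passed only narrowly there (adjusted p = 0.0495).

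Timp2, which blocks metalloproteinases but also carries the Mmp2 precursor to Mmp14 for its activation, differed little. The C57 hearts held 26.2, 24.9 and 27.1 scaled TPM (mean 26.1 ± 1.12, SD, n = 3), and the younger western-diet hearts 19.6, 20.3, 20.3 and 21 (mean 20.3 ± 0.587, n = 4). These groups did not overlap, yet the difference did not pass (log2 fold change -0.35 ± 0.11, adjusted p = 0.0924). The aged hearts held 23.7, 19.7, 27.7 and 22.8 and the aged western-diet hearts 26.5, 21.1, 24.9, 19.6 and 23.7, spanning both of the other groups. For the mean of the 3 Hap-I groups the value was -0.22 ± 0.09 (adjusted p = 0.117).

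Timp1, the soluble inhibitor that is induced in many injured tissues and has little effect on membrane-type metalloproteinases, varied more between hearts of 1 group than between groups. The C57 hearts alone held 3.18, 1.43 and 6.97 scaled TPM, which include the lowest and the highest value of the series. The aged hearts held 1.76, 2.46, 2.64 and 1.62 (mean 2.12 ± 0.506, SD, n = 4) and the aged western-diet hearts 2.72, 3.92, 2.35, 3.31 and 6.63 (mean 3.79 ± 1.7, n = 5). The diet difference in aged hearts was 0.57 ± 0.3 on the log2 scale and did not pass (95% confidence interval -0.07 to 1.2, adjusted p = 0.371). The younger western-diet hearts, at 3.26, 5.15, 2.14 and 2.84, lay within the C57 range.

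Among the proteases, Mmp2, the gelatinase that fibroblasts make constitutively, had its low values in western-diet hearts. The C57 hearts held 14.3, 12.8 and 15.2 scaled TPM (mean 14.1 ± 1.23, SD, n = 3) and the aged hearts 12.1, 12.6, 13.8 and 12.1 (mean 12.7 ± 0.814, n = 4). The aged western-diet hearts held 12.6, 5.89, 11.2, 4.76 and 14.3 (mean 9.74 ± 4.21, n = 5) and the younger western-diet hearts 10.8, 4.19, 8.49 and 13.6 (mean 9.28 ± 4, n = 4). The 3 hearts below 6, 1 younger and 2 aged, all carry the western-diet label. In the rest of their groups, 11.2, 10.8 and 8.49 also lie below every C57 heart and every aged heart without the diet. The values 12.6, 14.3 and 13.6 lie within the range of those hearts. No comparison passed. In younger western-diet minus C57 hearts the value was -0.65 ± 0.33 (adjusted p = 0.293), and in aged western-diet minus C57 hearts it was -0.59 ± 0.32 (adjusted p = 0.2).

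Mmp14, the membrane-type metalloproteinase that activates the Mmp2 precursor, did not pass in any of the 7 comparisons without a covariate. The C57 hearts held 4.62, 3.29 and 4.4 scaled TPM (mean 4.1 ± 0.71, SD, n = 3) and the aged hearts 4.54, 5, 5.54 and 5.88 (mean 5.24 ± 0.589, n = 4). The aged western-diet hearts split, at 7.3, 3.05, 4.09, 2.84 and 7.24, and hold both the highest and the lowest value of the series. The younger western-diet hearts held 5.82, 3.06, 5.29 and 5.71. For the 3 Hap-I groups averaged against C57 the log2 fold change was 0.21 ± 0.22 (95% confidence interval -0.25 to 0.68, adjusted p = 0.531).

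Mmp15, another membrane-type metalloproteinase, was highest in aged hearts without the diet, at 18.6, 16.4, 19.4 and 19.9 scaled TPM (mean 18.6 ± 1.56, SD, n = 4). The C57 hearts held 16.1, 14 and 14.6 (mean 14.9 ± 1.07, n = 3) and the younger western-diet hearts 14.4, 14.1, 15.1 and 15.6 (mean 14.8 ± 0.72, n = 4). Aged hearts overlapped neither group, but the differences did not pass (0.30 ± 0.12, adjusted p = 0.122 against C57, and 0.31 ± 0.11, adjusted p = 0.144 against the younger hearts). The aged western-diet hearts, at 18.3, 13.5, 16.8, 12 and 16.9, spanned the C57 and younger ranges. Of these values, 18.3, 16.8 and 16.9 lay within the aged range.

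Mmp9, the gelatinase stored in neutrophil granules, was near the bottom of the measured range. The C57 hearts held 0.415, 0.584 and 0.479 scaled TPM, the aged hearts 0.637, 0.649, 0.887 and 0.341, the aged western-diet hearts 0.571, 0.387, 0.255, 0.814 and 0.315, and the younger western-diet hearts 0.719, 0.3, 0.234 and 0.362. All groups overlapped. Two-sided exact permutation tests of the 6 pairs of groups gave p from 0.257 to 0.786 (adjusted over the 6, 0.729 to 0.786), where the smallest p possible was 0.00794 to 0.0286. Summed neutrophil markers ranged from 2.27 to 9.48 scaled TPM in C57 and from 6.58 to 66.3 in younger western-diet hearts, and the neutrophil genes Camp and Ly6g were at 0 in 13 and 11 of 16 hearts. The part of leukocytes in the Mmp9 values was not tested.

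**Figure D2:**
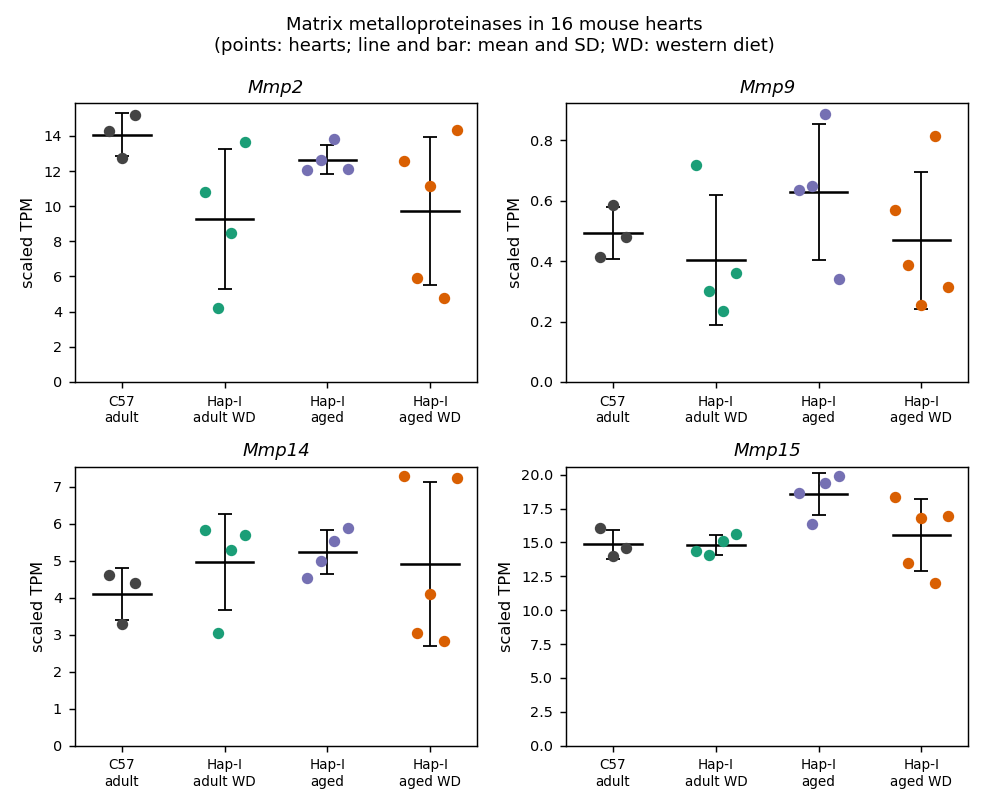
Scaled TPM (y axis, linear from 0) of the 4 metalloproteinases in the 4 groups (x axis); points are hearts, and the line and bar give the mean and SD. Mmp2 falls under 6 in 3 western-diet hearts, Mmp9 stays at 0.887 or less, Mmp14 splits within the aged western-diet group (2.84 to 7.3), and Mmp15 is highest in aged hearts (16.4 to 19.9).

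Within the Hap-I mice, no member passed in any of the 3 comparisons. For the diet in aged mice (aged western-diet minus aged), 0 of 7 members were called beside 0.166% of all genes. The presence of Y-linked transcripts differs along with the diet here, since they were near 0 in 3 aged western-diet hearts only. The largest differences were Timp1 at 0.57 and Mmp2 at -0.45 ± 0.29 (adjusted p = 0.489), and Mmp15 had the smallest unadjusted p (-0.26 ± 0.11, adjusted p = 0.26). Timp3 and Timp4 had opposite signs, -0.27 ± 0.22 and 0.29 ± 0.21 (adjusted p = 0.592 and 0.546).

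For age under the western diet (aged western-diet minus younger western-diet), 0 of 7 members were called beside 2.39% of all genes. Timp3 and Timp4 were both higher in the aged hearts by their means, 1.56-fold and 1.84-fold. Neither passed, at 0.66 ± 0.22 on the log2 scale (adjusted p = 0.112) for Timp3 and 0.73 ± 0.21 (adjusted p = 0.0751) for Timp4. Without younger western-diet replicate 4, the heart with the most Timp3 and Timp4 of its group, both passed (0.89, adjusted p = 0.0264, and 0.92, adjusted p = 0.0262).

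In aged minus younger western-diet hearts, age, the presence of Y-linked transcripts (near 0 in 2 younger hearts) and, by the labels, diet differ together. For these groups, 0 of 7 members were called beside 2.14% of all genes. Timp3 stood 1.85-fold higher in the aged hearts without overlap and just missed the threshold (0.94 ± 0.23, adjusted p = 0.0515). It passed without any 1 of 4 hearts (aged western-diet replicate 1, 4 or 5, or younger western-diet replicate 4, adjusted p = 0.0112 to 0.0476), while without younger western-diet replicate 2 it was at 0.73 (adjusted p = 0.147). Timp4 was at 0.44 ± 0.22 (adjusted p = 0.272). So the order of group means ran C57, aged, aged western-diet, younger western-diet for Timp3, and C57, aged western-diet, aged, younger western-diet for Timp4, with neighbours among the Hap-I groups not separated by the test.

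**Figure D3:**
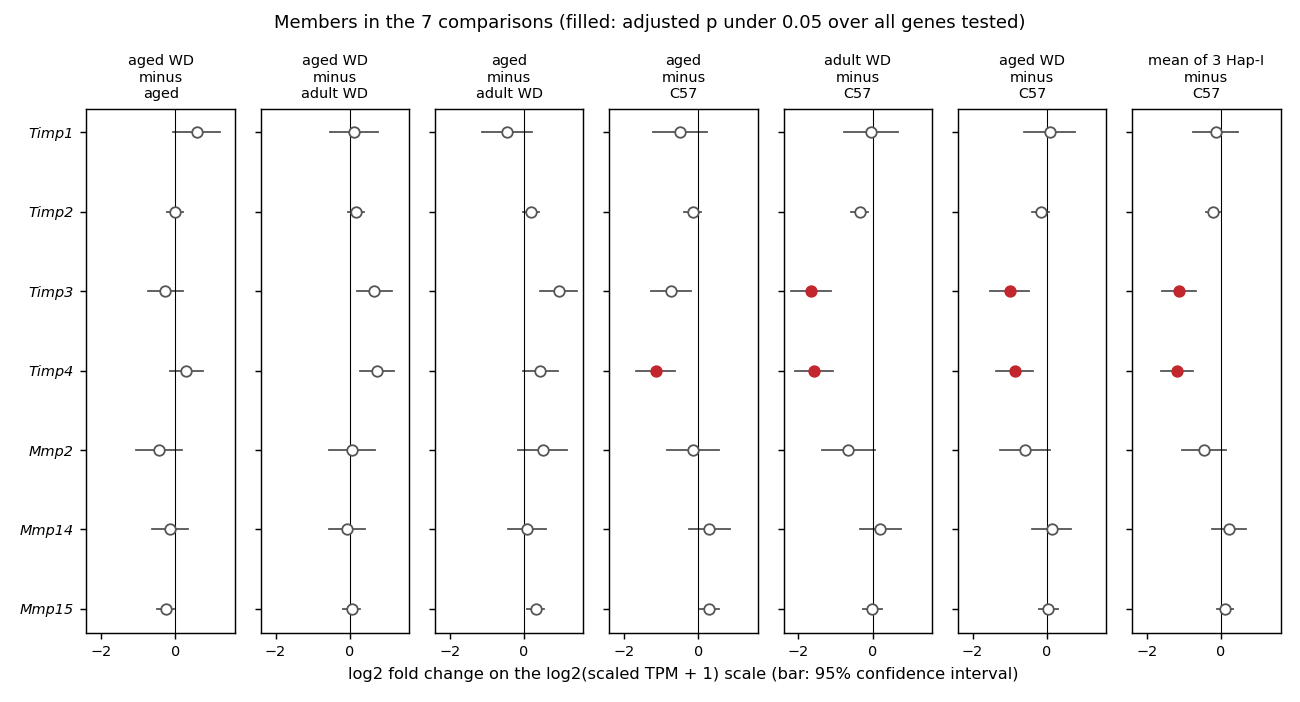
Log2 fold changes of the 7 tested members (rows) in the 7 comparisons (panels), on the log2(scaled TPM + 1) scale, with 95% confidence intervals as bars; filled points have an adjusted p under 0.05. The filled points are Timp3 and Timp4 in comparisons with C57, all negative, and Timp3 in aged minus C57 is open (adjusted p = 0.0745).

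The summed inhibitors were lower in each Hap-I heart than in each C57 heart, and the summed proteases were not. The 4 Timp levels summed to 98.2, 97.7 and 107.1 scaled TPM in C57 hearts and to 38.4 to 74.5 in the Hap-I hearts. The 4 Mmp levels summed to 30.6 to 35.4 in C57, 34.6 to 39.6 in aged, 20.4 to 38.8 in aged western-diet and 21.6 to 35.4 in younger western-diet hearts, overlapping C57 in each group. The Timp3 share of the summed inhibitors was 61.8% ± 0.731 in C57, 56.3% ± 3.25 in aged, 49.5% ± 5.09 in aged western-diet and 42.3% ± 9.33 in younger western-diet hearts (SD).

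The ratio of summed Timp to summed Mmp transcripts was 2.78, 3.19 and 3.09 in C57 hearts. It was 1.77, 1.91, 1.84 and 1.64 in aged hearts, 1.92, 2.35, 1.99, 2.46 and 1.84 in aged western-diet hearts, and 1.47, 1.78, 1.4 and 1.67 in younger western-diet hearts. Every Hap-I heart lay below every C57 heart, and size factors cancel in a ratio within 1 library. Timp3 to Mmp14 ranged from 13.2 to 18.5 in C57 and from 2.99 to 8.06 in Hap-I hearts. Timp2 to Mmp2, the pair that meet in the activation of Mmp2, did not follow this: it was 1.79 to 1.95 in C57, 1.56 to 2 in aged, 1.65 to 4.12 in aged western-diet and 1.54 to 4.84 in younger western-diet hearts. Its 3 highest values, 4.84, 4.12 and 3.58, come from the 3 hearts with the lowest Mmp2. Timp2 to Mmp14 was 5.68 to 7.56 in C57 and 3.88 to 5.22 in aged hearts. It was 3.27 to 6.93 in aged western-diet and 3.37 to 6.63 in younger western-diet hearts, both overlapping C57. Timp1 to Mmp9 overlapped C57 (2.45 to 14.6) in each Hap-I group (2.76 to 21 over these groups). The ratios are descriptions of transcript levels, given without a test.

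**Figure D4:**
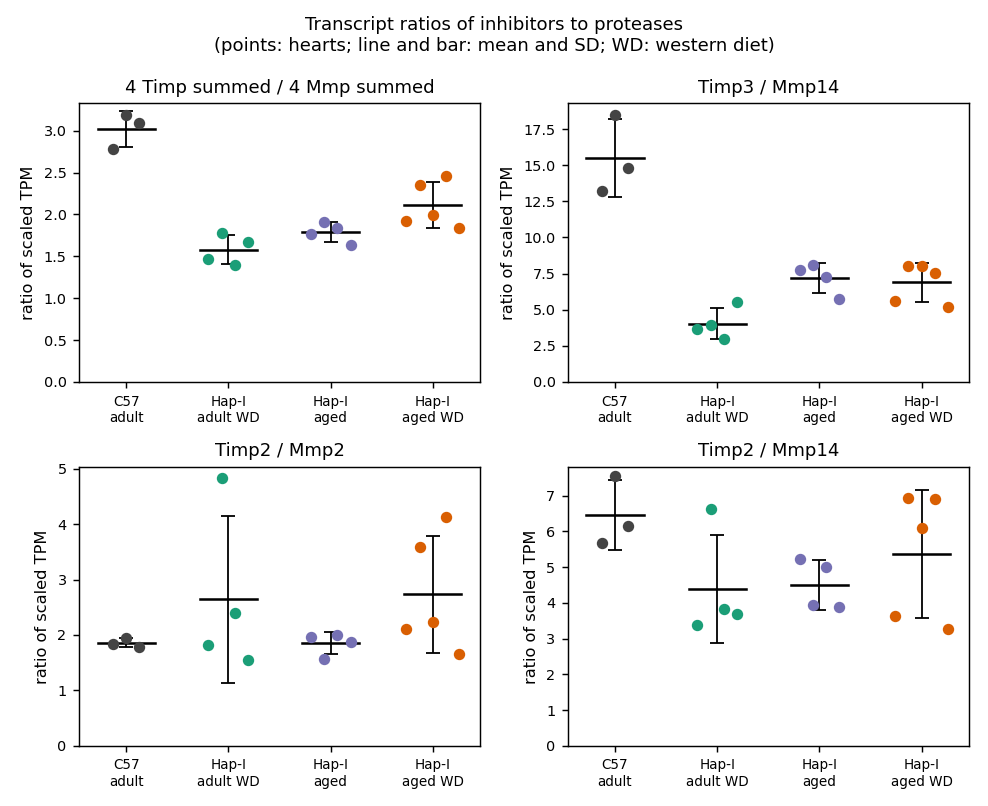
Ratios of scaled TPM within each heart (y axes, linear from 0) by group (x axis); points are hearts, and the line and bar give the mean and SD. The summed inhibitors stand at 2.78 to 3.19 times the summed proteases in C57 and at 1.4 to 2.46 times in Hap-I hearts, while Timp2 to Mmp2 overlaps between all groups. Timp2 to Mmp14 overlaps between C57 and both western-diet groups.

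Summed markers of fibroblasts, a main source of matrix genes, were also lower in the Hap-I hearts than in C57. The 8 fibroblast markers summed to 827.7 to 1069.3 scaled TPM in C57, 565.3 to 781.4 in aged, 339.5 to 675.2 in aged western-diet and 373 to 680.2 in younger western-diet hearts, without overlap between C57 and any Hap-I group. Gsn and Dcn make up most of this sum, and the defining markers Pdgfra and Tcf21 ranged from 2.25 to 5.78 and from 2.86 to 6.85 over all hearts. On the mean log2 level of the 8 markers the groups did overlap. C57 replicate 2 was at 4.68, below aged replicate 3 (4.73), aged western-diet replicate 1 (4.74) and younger western-diet replicate 1 (4.7). For the averaged Hap-I groups against C57, 3 of the 8 fell and 5 did not pass, beside 15.7% of all genes called. Of those 5, Pdgfra, Lum and Ddr2 lay near 0 (-0.12, 0.06 and 0.05), and Gsn and Tcf21 were at -1.05 and -0.36. In bulk tissue, fewer cells of a type and less RNA per cell cannot be told apart. Other marker lists, of 8 genes each, also differed between C57 and some Hap-I groups. Epicardial and mesothelial markers summed to 5.91 to 17 in C57, 2.58 to 5.34 in aged, 2.22 to 4.71 in aged western-diet and 1.77 to 7.04 in younger western-diet hearts, with Msln at 0 in 10 of 16 hearts. Ventricular muscle markers summed to 40125.5 to 44173.9 in C57, 31554.9 to 41028.2 in aged, 28723.4 to 36361.2 in aged western-diet and 27365.9 to 37928.5 in younger western-diet hearts. White adipocyte markers summed to 1142.1 to 1468.3 in C57 and 1165.1 to 1315.3 in aged hearts. They summed to 439.8 to 1064.6 in aged western-diet and 608.1 to 1233.1 in younger western-diet hearts. On this sum, only the aged western-diet hearts lay apart from C57. Lpl makes up nearly all of it (438.5 to 1464.6 over all hearts), whereas Adipoq ranged from 0.0352 to 4.53. Smooth muscle and pericyte markers summed to 190 to 196.9 in C57, 175.3 to 186.2 in aged, 137.6 to 244.1 in aged western-diet and 150.8 to 193.7 in younger western-diet hearts. Rgs5 makes up most of this sum by the group means and did not pass for the averaged Hap-I groups against C57 (-0.03, adjusted p = 0.854). In that comparison, 3 of the 7 tested fell and 4 did not pass, beside 15.7% of all genes called. Myh11 fell by 0.98, Kcnj8 by 0.7 and Tagln by 0.75 (adjusted p = 0.00201, 0.00236 and 0.0399). The part of these 4 lists in the Timp3 and Timp4 results was not tested.

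The 3 hearts with the least Mmp2 were also the 3 with the lowest fibroblast sums and the 3 lowest in Mmp14. Younger western-diet replicate 2 held 4.19 of Mmp2, 3.06 of Mmp14 and 373 of fibroblast markers, aged western-diet replicate 4 held 4.76, 2.84 and 339.5, and aged western-diet replicate 2 held 5.89, 3.05 and 388.9. Of these hearts, 2 also had the smallest size factors of the series (0.682 and 0.779). Timp4 did not follow them as a group, at 0.918, 5.9 and 3.97, which includes both the lowest and the highest Hap-I value.

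With each library's mean log2 level of the 8 fibroblast markers as a covariate, chosen after the data were seen, Timp4 kept its calls against C57 in aged, younger western-diet and aged western-diet hearts (-1.26, -1.69 and -0.97, adjusted p = 0.00951, 0.0102 and 0.0236). Timp3 kept its call in younger western-diet hearts (-1.25, adjusted p = 0.00854) and for the mean of the 3 Hap-I groups (-0.69, adjusted p = 0.0208). Its value in aged western-diet hearts was -0.54 and did not pass (adjusted p = 0.0704), and in aged hearts it was -0.28 (adjusted p = 0.348), against -0.73 without the covariate. Among Hap-I groups, Timp3 then passed in aged minus younger western-diet hearts (0.97, adjusted p = 0.0059) and in aged western-diet minus younger western-diet hearts (0.71, adjusted p = 0.0172). With that covariate, 2 proteases also passed as higher for the mean of the 3 Hap-I groups, Mmp14 at 0.72 ± 0.17 (adjusted p = 0.0109) and Mmp15 at 0.32 ± 0.09 (adjusted p = 0.023), and Mmp2 was at 0.22 (adjusted p = 0.459). The covariate is itself measured in the same libraries and, with overlap, differs between the groups.

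**Figure D5:**
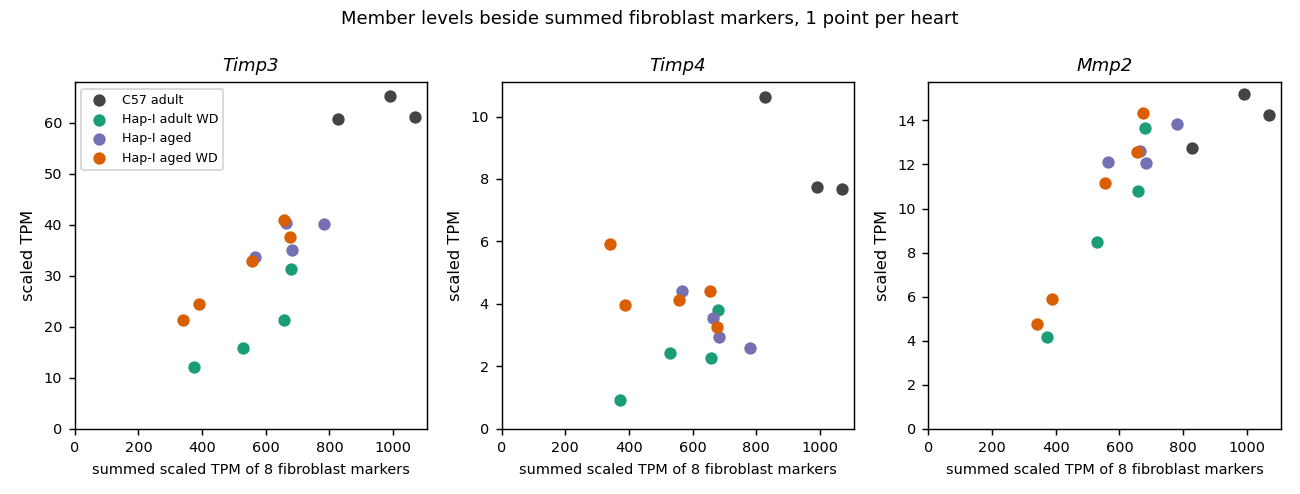
Scaled TPM of Timp3, Timp4 and Mmp2 (y axes) against the summed scaled TPM of 8 fibroblast markers (x axis), 1 point per heart, coloured by group, both axes linear from 0. The 3 C57 hearts lie apart at 827.7 to 1069.3, the 3 hearts with the lowest sums have the 3 lowest Mmp2 values and Timp3 at 12.1 to 24.5, while their Timp4 values span 0.918 to 5.9.

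The genes whose levels were most like each member's over the 16 hearts, among 6061 candidates, were named as a description; these values share libraries and their quality. Timp3 lay closest to Serinc3 (Pearson r = 0.93) and Snrnp200 (0.92), and Timp4 to Art3 (0.89) and Klf9 (0.87). Mmp2 lay closest to the collagen VI chains Col6a1 and Col6a2 (both 0.97) and Mmp15 to the extracellular sulfatase Sulf2 (0.96) and Macf1 (0.89). Mmp14 lay closest to Plat, tissue plasminogen activator (0.85), and Adam10 (0.84), Timp2 to Dab2 (0.84) and Gnao1 (0.83), and Timp1 to Atf5 (0.83) and Tagln2 (0.82). The 2 collagen VI chains had the level order of Mmp2, with C57 highest and younger western-diet hearts lowest (Col6a1 means 15.8, 14.4, 11.3 and 10 in C57, aged, aged western-diet and younger western-diet hearts).

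Around the members, the other metalloproteinases were mostly at trace levels: of 16 listed, 4 reached the filter (Mmp3, Mmp11, Mmp23 and Mmp28), and Mmp7 and Mmp10 were at 0 in the table in every heart. Mmp3, stromelysin-1, which can open other metalloproteinase precursors, rose 2.02-fold in aged western-diet minus C57 hearts, from 2.1 to 4.24 scaled TPM (0.81 ± 0.26, adjusted p = 0.0361), and 0.7 ± 0.23 for the mean of the 3 Hap-I groups (adjusted p = 0.0466). Mmp11, stromelysin-3, fell in aged western-diet hearts against C57 (-0.44 ± 0.12, adjusted p = 0.0165) and against younger western-diet hearts (-0.66 ± 0.11, adjusted p = 0.0146).

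Of 17 ADAM and ADAMTS proteases, several of which Timp3 blocks, 12 were tested. Adam19, a membrane-bound sheddase, rose against C57 in each Hap-I group, from 1.98 scaled TPM to 3.96 in aged, 4.84 in younger western-diet and 3.72 in aged western-diet hearts (log2 fold changes 0.74, 0.98 and 0.67, adjusted p = 0.0176, 0.0091 and 0.0121). Adamts15 fell in aged western-diet hearts (-0.51 ± 0.15, adjusted p = 0.0276). For the mean of the 3 Hap-I groups, 1 rose, 0 fell and 11 did not pass, with a median of 0, beside 15.7% of all genes called.

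Of 16 activators, cofactors and other inhibitors 13 were tested. For the mean of the 3 Hap-I groups 1 rose, 0 fell and 12 did not pass (median -0.2), beside 15.7% of all genes called. The riser was Furin, the convertase that opens the Mmp14 precursor, at 0.43 ± 0.1 (12.6 to 17.4 scaled TPM, adjusted p = 0.00812), with 0.38 in aged and 0.61 in aged western-diet hearts (adjusted p = 0.0415 and 0.00186). In aged western-diet hearts Serpine2 fell by 0.76 (adjusted p = 0.0235) and Lrp1, the endocytic receptor that clears metalloproteinases and their inhibitors, by 1.02 (adjusted p = 0.039). Reck, a membrane-anchored inhibitor, did not pass, at 0.453 to 1.32 scaled TPM over all hearts.

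Of 10 cathepsins and cystatins tested, 3 fell and 7 did not pass in aged western-diet minus C57 hearts: Ctsl by 0.71, Ctsk by 0.48 and Ctsh by 0.56 (adjusted p = 0.00198, 0.00975 and 0.0135). Of 22 matrix substrates, 4 fell and 18 did not pass in the same comparison, where 21.9% of all genes were called, with 21 negative values and a median of -0.64 against -0.001 over all genes. The 4 were Dcn, decorin, by 0.62, Lamc1 and Lama4, laminin chains, by 1.42 and 1.22, and Fn1, fibronectin, by 1.38 (adjusted p = 0.00533, 0.0102, 0.0107 and 0.0136). Against that share of all genes, neither count is a result about its list. In the 3 comparisons among Hap-I groups, 1 gene of these 5 lists passed, Mmp11 as given above. Dcn is also on the fibroblast list, whose summed level differed between C57 and the Hap-I groups as given above.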

How the data were processed

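The 16 hearts were sequenced from polyadenylated RNA as stranded libraries, per the labels' protocols. The authors deposited 1 table of TPM per gene. The submitters' processing notes name kallisto, DESeq2 and GRCm38, and versions and strand setting are not given in the sources used here. TPM keep no depth, so errors are spreads between hearts, which the design text describes as separate animals.

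Of 30153 genes, 29732 had a symbol. A filter of 1 TPM in 3 libraries or more left 11415 genes. Median-of-ratios size factors over these genes scaled the TPM, which were fitted as log2(scaled TPM + 1) with limma 3.58.1 (R 4.3.3, 1 mean per group, 16 libraries, variance trend). P-values were two-sided, Benjamini-Hochberg adjusted within each of 7 comparisons, and called under 0.05. Hearts are numbered in accession order, since the labels number none within a group. The code was tested on simulated data. Members and gene lists were chosen with earlier results of these data known. The text names all 8 members, called genes of 5 pathway lists (up to 4 per list) and, per tested member, the 2 genes of highest Pearson r with a mean of at least 5 scaled TPM. One gene that this rule names is not reported here. AP-1 was planned as a motif, and Sp1 and TATA were added. Shared words were counted over GENCODE transcripts. Alternatives concerned scaling, pseudocount, filter, variance, covariates, transcript length (longest transcript), the libraries used and the omission of each library.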

Additional observations from a re-analysis of the deposited data

How the results depend on the processing

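The count of members called is given here under settings that moved it by over 1.5 times. In aged western-diet minus younger western-diet hearts (0 of 7) it was 2 with library weights, 1 with the fibroblast covariate and 0 to 2 when 1 library was left out. In aged minus younger western-diet hearts (0) it was 1 with a robust variance, 2 with library weights and 2 with the fibroblast covariate (Timp3 and Mmp15), and 0 to 1 when 1 library was left out. In aged minus C57 hearts (1) it was 0 without size factors, with TPM renormalized without mitochondrial transcripts and at an adjusted p under 0.01. It was 3 with library weights, with only the groups compared and with the fibroblast covariate, 2 with the length correction with or without a sex covariate, and 1 to 2 when 1 library was left out. In younger western-diet minus C57 hearts (2) it was 4 with library weights and 1 with only the groups compared or in libraries with Y-linked transcripts. In aged western-diet minus C57 hearts (2) it was 0 without size factors, with TPM renormalized without mitochondrial transcripts and with the atrial covariate. There it was 1 with a sex covariate, with length and sex corrected together, in libraries with Y-linked transcripts and at an adjusted p under 0.01, and 1 to 2 when 1 library was left out. For the mean of the 3 Hap-I groups (2) it was 4 with the fibroblast covariate. The cause of these changes was not tested. The fibroblast covariate, the fits of libraries with Y-linked transcripts, the renormalized TPM and the joint length and sex correction were chosen after the data were seen.

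The count of all genes called moved more than the members' count. Over all settings other than left-out libraries it ran from 4 to 316 for the diet in aged hearts, 5 to 1504 and 10 to 3042 for aged western-diet and aged minus younger western-diet hearts, 225 to 3609, 66 to 2445 and 614 to 3735 for aged, younger western-diet and aged western-diet minus C57 hearts, and 383 to 3855 for the mean of the 3 Hap-I groups. With 1 library left out these ranges were 4 to 92, 29 to 570, 38 to 733, 372 to 1480, 75 to 576, 1256 to 2700 and 563 to 2117.

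No call of Timp3 or Timp4 changed sign. The values that did were those of members near 0 that had not passed, given as log2 fold changes. For the diet in aged hearts, Timp2 was 0.03 with library weights and 0.04 with the atrial covariate. For aged western-diet minus younger western-diet hearts, Mmp14 was 0.05 without size factors and 0.05 with renormalized TPM, and Mmp15 was -0.04 with the length correction, -0.04 with length and sex corrected and -0.1 in libraries with Y-linked transcripts, where Mmp2 was -0.33. In those libraries Mmp14 was -0.06 for aged minus younger western-diet hearts. For aged minus C57 hearts, Timp2 and Mmp2 were both 0.01 without size factors, and 0.02 and 0.54 with the fibroblast covariate. For younger western-diet minus C57 hearts, Timp1 was 0.12 with the atrial covariate, 0.02 with the length correction, 0.04 with length and sex corrected and 0.04 with the fibroblast covariate. There Mmp15 was 0.01 with quantile normalization, with the 5 TPM filter and with the atrial covariate. In the Y-linked libraries it was 0.05 and with the fibroblast covariate 0.19. For aged western-diet minus C57 hearts, Timp1 was -0.1 with library weights, Timp2 and Mmp2 were 0.02 and 0.13 with the fibroblast covariate, and Mmp15 was -0.06 with the length correction, -0.08 with length and sex corrected and -0.06 in libraries with Y-linked transcripts. For the mean of the 3 Hap-I groups, Timp1 was 0.04 with the atrial covariate, 0.01 with the length correction and 0.03 with length and sex corrected, and Mmp2 was 0.22 with the fibroblast covariate.

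With 1 library left out in turn, the signs of other uncalled values also turned. Timp2 ran from -0.09 to 0.06 for the diet in aged hearts. For aged western-diet minus younger western-diet hearts, Timp1 ran from -0.06 to 0.3, Mmp2 from -0.24 to 0.26, Mmp14 from -0.24 to 0.07 and Mmp15 from -0.01 to 0.13, and for aged minus younger western-diet hearts Mmp14 ran from -0.09 to 0.16. For younger western-diet minus C57 hearts, Timp1 ran from -0.45 to 0.4 and Mmp15 from -0.04 to 0.05. For aged western-diet minus C57 hearts, Timp1 ran from -0.33 to 0.52 and Mmp15 from -0.02 to 0.13, and for the mean of the 3 Hap-I groups Timp1 ran from -0.56 to 0.29. No paired analysis was possible because the labels carry no replicate number that the groups share. Levels depend on the scaling: with mitochondrial transcripts left out before size factors were computed, mean Timp3 in C57 was 106.9 in place of 62.4 scaled TPM. The TPM give no depth, so counting error for low members such as Mmp9 and Timp1 is unknown.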

Other observations

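Summed endothelial and macrophage markers, 2 other possible sources of inhibitor and protease transcripts, overlapped between C57 and each Hap-I group. Endothelial markers summed to 237.8 to 285.4 scaled TPM in C57, 227.7 to 244.6 in aged, 194.9 to 339.1 in aged western-diet and 216.4 to 264.5 in younger western-diet hearts. Macrophage and leukocyte markers summed to 140.3 to 228.8, 136.8 to 153.3, 131.1 to 189.8 and 136.1 to 178.4 in the same order. Single genes did not all overlap. In aged minus C57 hearts, Esam, Pecam1, Cd14 and Mrc1 (lower) and Kdr (higher) had no overlap, and none of them passed. For the averaged Hap-I groups against C57, Esam fell (-0.41, adjusted p = 0.0385), 1 of 8 endothelial markers beside 15.7% of all genes. No macrophage and leukocyte marker passed there.

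Hearts with and without Y-linked transcripts occur together in both western-diet groups. In aged western-diet hearts Timp3 was 21.4 and 37.7 where Y-linked transcripts were present and 24.5 to 40.9 in the 3 hearts where they were near 0. In younger western-diet hearts it was 15.8 and 31.4 where they were present and 12.1 and 21.4 where they were near 0. Timp4 in these younger hearts was 2.43 and 3.8 where they were present and 0.918 and 2.26 where they were near 0. Every one of these values is below the C57 hearts, all 3 of which have Y-linked transcripts.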
